A study of Mus musculus with 63 samples.

Results

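Kinesin motor genes were taken as all genes whose single array symbol begins with Kif and a digit, each represented by its probe set with the highest mean. The arrays measured 38 such genes among 19938 genes. Of these, 10 are motors of mitosis (Kif2c, Kif4, Kif11, Kif14, Kif15, Kif18a, Kif20a, Kif20b, Kif22 and Kif23) and 28 are other members, mostly motors of transport and cilia, including the pseudogene Kif4-ps. Kinesins use ATP to walk along microtubules or to take their ends apart. The mitotic members build the spindle, hold and move chromosomes and organise the midzone at cytokinesis, and most of their genes are transcribed mainly in G2 and M phase of the cell cycle. The transport members carry vesicles, organelles and ciliary cargo in cells that need not divide.

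RNA came from lymph node lymphoma cells of C57BL/6 mice carrying the Emu-myc transgene, which drives Myc in B-lineage cells, so that all groups share the transgene. The CTX 4h group held 31 arrays, from a time point of 4 h. For its 29 arrays of 100 ng RNA the protocols describe 300 mg/kg cyclophosphamide (CTX), a DNA-alkylating drug, given once into the peritoneum of recipient mice bearing transplanted lymphomas; the labels of its 2 arrays of 300 ng give no dose, route or host. The native group held 32 arrays with no drug; the labels do not settle whether these lymphomas came from transgenic hosts or from recipients. Of the native arrays, 15 were labelled from 100 ng RNA and 17 from 300 ng. Each array has a lymphoma number of its own, and no label ties arrays of the groups to each other. Separate mice are not stated either, and p-values here reflect the spread between arrays alone, which may be partly technical. Cells of the 100 ng arrays were not purified, the labels of the 300 ng arrays do not speak of purification, and in such bulk samples fewer cells of a type and less RNA per cell cannot be told apart.

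Values are log2 expression, as deposited, with array medians of 6.53 to 7.11; the number of arrays limits the precision. Of 10 measured B-lineage markers 0 differed between groups at a limma adjusted p under 0.05 (0 at an unadjusted p under 0.05), while 1 of 11 macrophage and 3 of 10 stromal and endothelial markers and 32 of 56 small nucleolar RNA genes were higher in CTX 4h and none of these 3 lists' genes was lower. In the 44 arrays of 100 ng none of these 3 lists had a gene past the threshold. Native replicates 8 (100 ng) and 19 (300 ng) stood apart, with Myc at 11.39 and 10.64 against 12.36 in the third lowest array, and they are called the low-Myc arrays here. Results that rest on them are given with and without them.

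The promoter windows of the mitotic members are shown because these genes varied together, as described further on. RefSeq start sites on GRCm38.p6 gave a window of 250 bases before to 50 bases after the start for 31 of the 38 genes, 9 of them mitotic (35 windows). The letters TTTGAA, read on either strand, are those of the cell cycle genes homology region, an element described in promoters of G2 and M phase genes. They were present in the windows of 8 of 9 mitotic members, of 4 of 22 other members (Kif1a, Kif18b, Kif26b and Kif27) and in 17.9% of all 32851 windows. The variant TTCGAA was in none of the 9 mitotic windows, in that of 1 other member (Kif24) and in 1.56% of all windows, and CCAAT, the letters bound by NF-Y, was in 5 of 9 mitotic windows and 37.4% of all. In the stretch from 110 bases before to 30 after the start, chosen after the places of the matches were seen, 7 of 9 mitotic windows, 4 of 26 other windows and 7.77% of all windows held TTTGAA on either strand. Those 7 stretches follow, 5′ to 3′ along the gene, with that of Kif18a as the mitotic member with no match in its window; capitals mark TTTGAA, which on the other strand reads TTCAAA, and CCAAT, which on the other strand reads ATTGG. The motifs do not overlap here.
Kif2c, chr4:117178743-117178882, minus strand: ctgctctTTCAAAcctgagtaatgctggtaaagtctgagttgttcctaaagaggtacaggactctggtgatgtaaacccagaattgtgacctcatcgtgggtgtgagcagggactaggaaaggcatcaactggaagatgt
Kif22, chr7:127042391-127042530, minus strand: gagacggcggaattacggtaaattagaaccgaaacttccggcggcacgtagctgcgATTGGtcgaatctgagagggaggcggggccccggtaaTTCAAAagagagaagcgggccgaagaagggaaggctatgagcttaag
Kif4, chrX:100625955-100626094, plus strand: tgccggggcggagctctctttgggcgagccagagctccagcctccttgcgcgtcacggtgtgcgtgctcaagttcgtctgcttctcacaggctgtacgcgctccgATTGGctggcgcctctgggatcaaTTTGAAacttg
Kif11, chr19:37376272-37376411, plus strand: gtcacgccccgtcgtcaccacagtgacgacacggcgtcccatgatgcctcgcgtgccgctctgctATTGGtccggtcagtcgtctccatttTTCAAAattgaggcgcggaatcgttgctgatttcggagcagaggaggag
Kif15, chr9:122950971-122951110, plus strand: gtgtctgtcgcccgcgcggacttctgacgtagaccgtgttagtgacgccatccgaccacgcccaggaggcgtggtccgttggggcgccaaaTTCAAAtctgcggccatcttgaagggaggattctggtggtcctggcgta
Kif23, chr9:61946770-61946909, minus strand: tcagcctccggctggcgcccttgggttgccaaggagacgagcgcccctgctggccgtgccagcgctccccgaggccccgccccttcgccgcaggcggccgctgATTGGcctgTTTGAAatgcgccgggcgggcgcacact
Kif20b, chr19:34922248-34922387, plus strand: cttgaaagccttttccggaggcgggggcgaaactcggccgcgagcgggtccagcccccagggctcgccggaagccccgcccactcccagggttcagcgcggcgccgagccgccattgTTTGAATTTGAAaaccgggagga
Kif18a, chr2:109280628-109280767, plus strand: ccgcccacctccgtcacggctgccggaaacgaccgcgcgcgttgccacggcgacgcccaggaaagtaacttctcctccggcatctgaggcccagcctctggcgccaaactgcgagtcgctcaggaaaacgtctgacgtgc
The matches lay at different distances: before the start in Kif2c, Kif22, Kif11 and Kif15, and after it in Kif4, Kif23 and Kif20b, where 2 copies stood side by side. In Kif14 the match lay far upstream, at -228 to -223. The start sites used for Kif2c and Kif14 lie inside the annotated span of the gene. A match describes the letters in this window and shows no binding.

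The comparison of CTX 4h with native asked which kinesin genes differed 4 h after the drug. Across all arrays, with RNA input in the model, 6 of the 38 kinesin genes were lower and 0 were higher, against 1.26% of all genes lower and 1.41% higher (limma, adjusted p under 0.05). Those 6 were the mitotic members Kif2c, Kif14, Kif18a, Kif20b and Kif22, and Kif6. All 10 mitotic members had a log2 fold change below 0, with a median of -0.67; 22 of 28 other members were below 0, with a median of -0.08; and 54% of all genes were below 0, with a median of -0.01. At an unadjusted p under 0.05 the counts were 9 mitotic and 7 other members, against 3484 of all 19938 genes (limma).

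**Figure D1:**
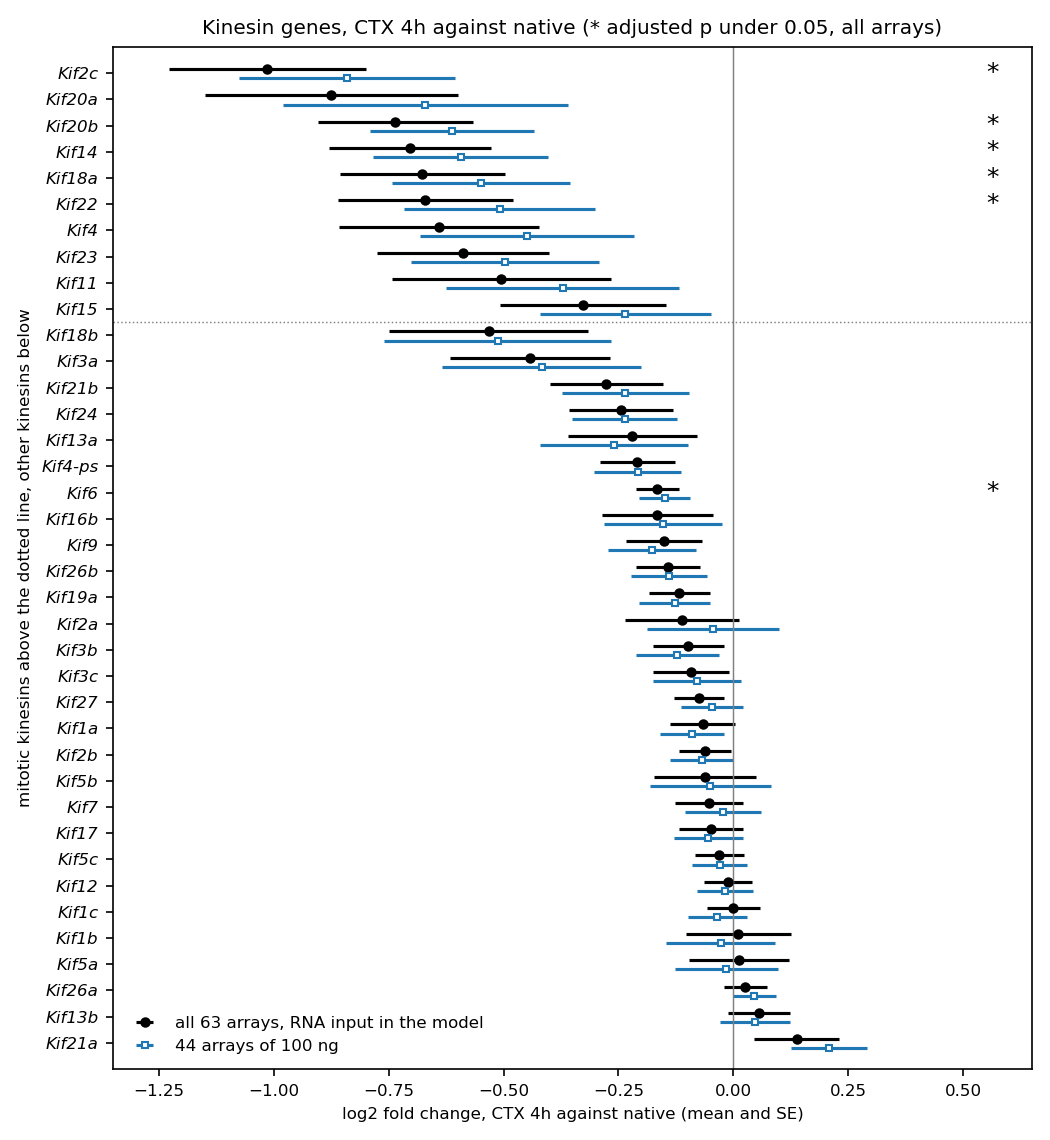
Log2 fold change of CTX 4h against native for 38 kinesin genes, with its SE; filled circles are the model over all 63 arrays, open squares the 44 arrays of 100 ng. The 10 mitotic members, above the dotted line, all lie left of 0, and stars mark the 6 genes past the adjusted threshold over all arrays.

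Among the motors that act on chromosomes and microtubule ends, the largest difference was that of Kif2c, a depolymerase that frees wrongly attached microtubules at centromeres. Its level ran from 7.10 to 10.01, median 8.80, in CTX 4h and from 7.54 to 10.72, median 9.57, in native arrays. The groups overlapped: 23 of 31 CTX 4h arrays lay below the native median and 10 native arrays above the highest CTX 4h array. Those 10 included all 7 native arrays whose lymphoma numbers begin with 1. Kif2c had a mean of 8.82 ± 0.83 (SD, n = 31) against 9.65 ± 0.68 (SD, n = 32). The modelled difference was -1.01 ± 0.21 (SE), with a limma adjusted p of 0.00391. Kif18a, which shortens the microtubules attached to kinetochores and so dampens chromosome movements, ran from 7.09 to 9.55, median 8.41, in CTX 4h against 6.77 to 9.80, median 8.95, in native arrays. It fell by 0.68 ± 0.18 (SE) on the log2 scale (limma adjusted p = 0.0249), with 23 of 31 CTX 4h arrays below the native median. Kif22, the chromokinesin that pushes chromosome arms from the poles, ran from 7.89 to 10.57, median 9.12, against 7.45 to 10.57, median 9.67, and fell by 0.67 ± 0.19 (SE; limma adjusted p = 0.0397). The lower quartiles of Kif22 were 8.74 and 9.50 while the highest values were 10.57 in both groups, so the groups were further apart in the lower part of the range. Kif4, a chromokinesin that works with Prc1 at the midzone, ran from 6.72 to 10.25 (median 8.80) and from 6.46 to 9.85 (median 9.11). Its difference of -0.64 (95% interval -1.08 to -0.21) did not pass (limma adjusted p = 0.0935).

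The motors of spindle bipolarity gave the smallest differences of the mitotic members. Kif11, the tetrameric motor that pushes the poles apart, ran from 9.56 to 12.28 in CTX 4h, with a mean of 11.01 ± 0.76 (SD, n = 31), and from 8.13 to 12.61 in native arrays, with a mean of 11.34 ± 0.92 (SD, n = 32). Both native arrays below the CTX 4h range were the low-Myc arrays. Its difference of -0.50 (95% interval -0.98 to -0.03) had a limma adjusted p of 0.255. Kif15, which can take over part of the work of Kif11, ran from 8.19 to 10.30 (median 9.50) and from 7.25 to 10.55 (median 9.84), and its difference of -0.33 (95% interval -0.69 to 0.03) did not pass either (limma adjusted p = 0.342).

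Of the 4 motors of the midzone and cytokinesis, Kif14 and Kif20b passed the test. Kif20b, a plus-end motor needed to complete cytokinesis, ran from 7.28 to 9.53 (median 8.42) in CTX 4h and from 7.03 to 9.84 (median 9.08) in native arrays. It fell by 0.74 ± 0.17 (SE; limma adjusted p = 0.00744), and 26 of 31 CTX 4h arrays lay below the native median. Kif14, which binds Prc1 and citron kinase, ran from 7.07 to 9.26 (median 8.30) and from 6.70 to 9.76 (median 8.94). It fell by 0.70 ± 0.18 (SE; limma adjusted p = 0.0174), again with 26 of 31 arrays below the native median. A second Kif14 probe set, near the bottom of the scale with a mean of 4.29, gave 0.02 ± 0.03 (SE), so the Kif14 result rests on the brighter probe set. Kif20a, which brings the Aurora B complex to the midzone, ran from 7.93 to 11.38 (median 9.63) in CTX 4h and from 7.54 to 11.87 (median 10.16) in native arrays. Its difference was the second largest, -0.88 ± 0.28 (SE), with an SD of 1.03 within CTX 4h, and the limma adjusted p was 0.068. Kif23, the motor subunit of centralspindlin, ran from 8.18 to 11.10 (median 9.85) and from 8.13 to 11.17 (median 10.33), with a difference of -0.59 (limma adjusted p = 0.0699).

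**Figure D2:**
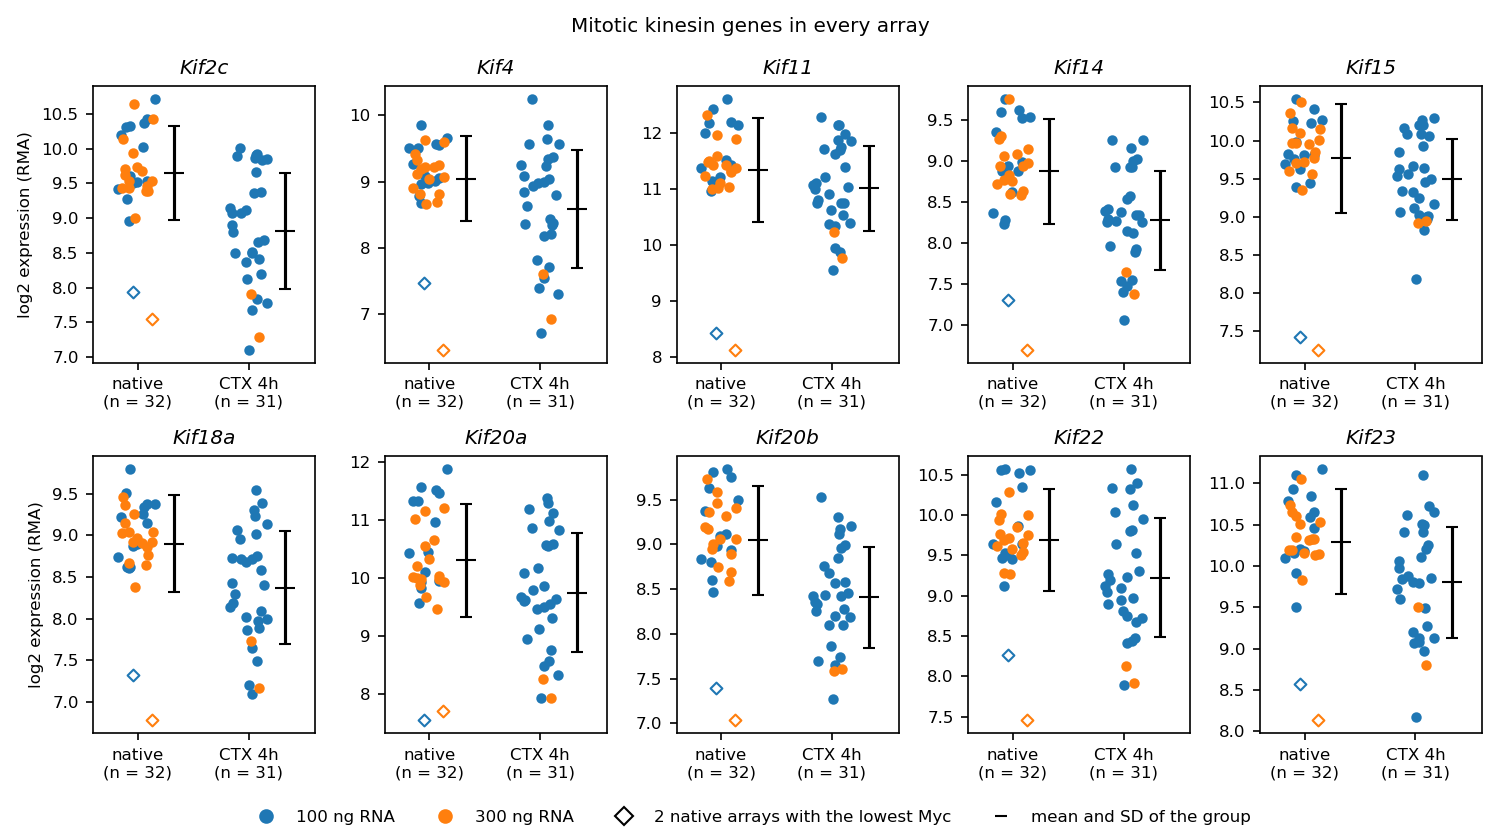
Log2 expression of the 10 mitotic kinesins in each of 32 native and 31 CTX 4h arrays (points, coloured by RNA input), with the mean and SD of each group; the vertical scale differs between panels. The groups overlap in every panel, the 2 native arrays with the lowest Myc (open diamonds) lie among the lowest arrays, and so do both CTX 4h arrays of 300 ng.

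The low-Myc arrays bore on these counts. Without them all 10 mitotic members fell past the threshold, with a median of -0.80, and 13 kinesin genes were lower, Kif6, Kif18b and Kif24 being the other 3. The count over all 19938 genes rose too, with 1657 lower in that setting against 251 with every array kept. Kif2c then stood at -1.15 ± 0.19 (SE; limma adjusted p = 1.2e-04) and Kif20a at -1.09 ± 0.24 (SE; limma adjusted p = 0.0031). Leaving out native replicate 8 alone gave 11 lower kinesin genes, and native replicate 19 alone gave 9, where 1034 and 352 of all genes were lower. In the other direction, 2 kinesin genes stayed lower without CTX 4h replicate 30, a 300 ng array, 3 without CTX 4h replicate 31, the other 300 ng array, and 3 without native replicate 14. Of all genes 105, 128 and 143 were lower in these settings, in that order.

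RNA input and the lymphoma number series also moved with the result. In the 44 arrays of 100 ng no kinesin gene passed, against 0.251% of all genes, although all 10 mitotic members (51.7% of all genes) were below 0, with a median of -0.53. There 7 mitotic and 5 other members had an unadjusted p under 0.05, against 2225 of all 19938 genes (limma). Kif2c was at -0.84 ± 0.24 (SE; limma adjusted p = 0.123) there, and without native replicate 8 Kif2c, Kif14 and Kif20b passed. The difference between the treatment effects at 300 ng and 100 ng was called by limma for no kinesin gene (2 at an unadjusted p under 0.05, against 1090 of all 19938 genes), against 0.0201% of all genes; its median over the mitotic members was -0.85, and for Kif2c it was -1.13 ± 0.58 (SE; limma adjusted p = 0.943). Among native arrays alone, 300 ng against 100 ng called no kinesin gene by limma (4 at an unadjusted p under 0.05, against 2586 of all 19938 genes), against 0.15% of all genes, with a mitotic median of -0.16.

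Lymphoma numbers begin with 1, 8 or 9 in the 100 ng arrays, and the labels do not say what these series are. Within series 1 (6 CTX 4h and 7 native arrays) and series 8 (9 and 3 arrays) all 10 mitotic members were lower in CTX 4h on average, with median differences of -0.30 and -0.57, against 49.1% and 53.5% of all genes below 0. In series 9 (14 and 5 arrays) 6 of 10 were below 0 with a median of -0.04, and without native replicate 8 all 10 were, with a median of -0.35. The 300 ng arrays (2 and 17) gave 10 of 10 and a median of -1.40, where 60.8% of all genes were below 0. For Kif2c in series 1 the groups did not overlap, at 9.80 ± 0.21 (SD, n = 6) in CTX 4h against 10.34 ± 0.21 (SD, n = 7) in native arrays. The exact two-sided permutation p was 0.00117, and 0.177 after Benjamini-Hochberg adjustment over the 152 such comparisons. Series 1 was high for Kif2c in both groups, its CTX 4h mean lying above the mean of all native arrays. Ranges and positions over all arrays do not separate the series from the treatment. In series 8 all 9 CTX 4h values of Kif2c, Kif14, Kif20b, Kif22 and Kif23 lay below the 3 native values. Of the mitotic members, 3 had an exact permutation p under 0.05 there. These were Kif2c, Kif14 and Kif20b, at 0.0409, 0.0227 and 0.0273 (0.327, 0.23 and 0.259 adjusted over the 152). Of the other members, 0 had such a p in series 8. In series 1 the same unadjusted test gave 4 mitotic and 2 other members, in series 9 it gave 0 and 0, and at 300 ng 8 and 3. It was not run over all genes, so no share of all genes can be set beside these counts. The share of all genes whose groups did not overlap within a series was not computed, so the separations named here do not set the kinesins apart. In none of the 152 comparisons was the adjusted p under 0.05. With 3 native arrays in series 8 and 2 CTX 4h arrays at 300 ng, few arrangements exist, which limits how small an exact p can be. That count therefore does not show that the groups were alike there. With the number series as a further model term, Kif2c (-0.78 ± 0.19, SE; limma adjusted p = 0.0192) and Kif20b (-0.57 ± 0.15, SE; limma adjusted p = 0.0464) remained past the threshold.

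**Figure D3:**
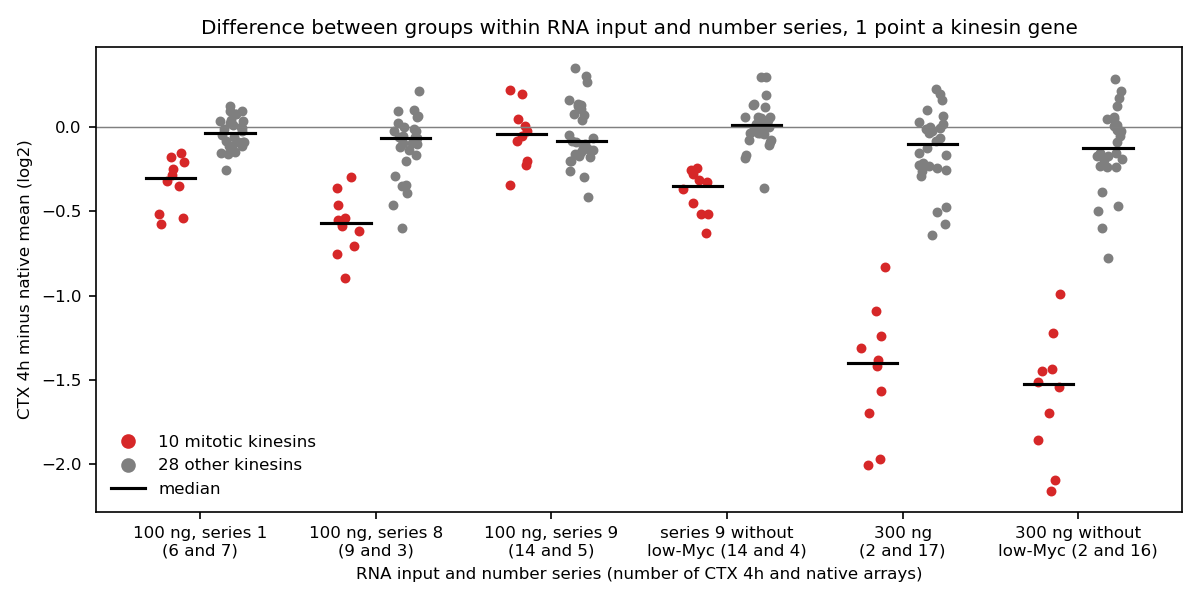
Difference of the CTX 4h and native means (log2) for each mitotic (red) and other (grey) kinesin gene, within RNA input and number series, with the number of CTX 4h and native arrays below; black bars are medians. The mitotic medians are -0.30, -0.57, -0.04 and -1.40 in the 4 sets, and -0.35 and -1.53 where a low-Myc array is left out.

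Markers and a small RNA class differed beside the kinesins. The small nucleolar RNA score, the mean of its 56 centred genes, ran from -1.56 to 1.31 in CTX 4h (median 0.42) and from -1.61 to 0.75 in native arrays (median 0.01). The score also set series 1 apart: its 13 arrays, treated and native, lay at -0.93 or lower and the other 50 arrays at -0.74 or higher. Its medians in CTX 4h and native arrays were -1.13 and -1.26 in series 1, 0.45 and -0.02 in series 8, 0.47 and 0.02 in series 9, and 0.89 and 0.23 at 300 ng. With that score as a covariate no kinesin gene passed by limma (5 at an unadjusted p under 0.05, 4 of them mitotic), the mitotic median was -0.30 and Kif2c was at -0.55 ± 0.20 (SE; limma adjusted p = 0.325). Of all 19938 genes, 24 were higher and 2 lower in that model, and 1765 had an unadjusted p under 0.05 (limma). The macrophage score ran from -0.97 to 1.35 in CTX 4h (median 0.14) and from -0.60 to 0.37 in native arrays (median -0.11). The stromal score ran from -0.67 to 0.74 (median 0.17) and from -0.62 to 0.46 (median -0.12). With both as covariates Kif2c alone of the kinesin genes passed, at -0.78 ± 0.22 (SE; limma adjusted p = 0.0493), and the mitotic median was -0.45. Of all genes 197 were lower and 110 higher in that model. Of 9 ciliated and salivary epithelial markers, 2 were higher in CTX 4h, Amy1, the salivary amylase, by 2.41 ± 0.71 (SE; limma adjusted p = 0.0466) and Bpifa2, a secreted protein of the parotid gland, by 2.87 ± 0.85 (SE; limma adjusted p = 0.0467). Both passed in the 100 ng arrays too (limma adjusted p = 0.0485 and 0.0329). The score of that list ran from -1.01 to 1.40 in CTX 4h (median 0.03) and from -1.13 to 2.05 in native arrays (median -0.24). The part of these lists in the kinesin result was not tested beyond the covariates named here.

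Of the 28 other members, Kif6, a motor linked to motile cilia, passed over all arrays. It ran from 6.05 to 6.70 (median 6.31) in CTX 4h and from 6.12 to 6.99 (median 6.43) in native arrays and fell by 0.17 ± 0.05 (SE; limma adjusted p = 0.0372). This small difference lay within overlapping ranges at a low level, and the second Kif6 probe set gave -0.09 ± 0.07 (SE). The 27 others, which did not pass, spanned -0.53 for Kif18b to 0.14 for Kif21a. Kif18b, a kinesin-8 that acts on astral microtubules in mitosis, ran from 8.59 to 11.44 (median 9.73) against 7.82 to 11.53 (median 10.02), with a difference of -0.53 ± 0.22 (SE; limma adjusted p = 0.177). Kif24, a centriolar depolymerase, was at -0.24 ± 0.11 (SE; limma adjusted p = 0.243). For Kif3a, a subunit of the kinesin-2 motor of intraflagellar transport, the difference was -0.44 ± 0.17 (SE; limma adjusted p = 0.16), with ranges of 5.53 to 8.45 in CTX 4h and 5.69 to 9.03 in native arrays. Its partners Kif3b and Kif3c were at -0.10 and -0.09. Kif21b, a kinesin-4 that regulates microtubule growth, stood at -0.28 ± 0.12 (SE, limma adjusted p = 0.228), and Kif26b at -0.14 ± 0.07 (SE, limma adjusted p = 0.272). The second Kif26b probe set, with a mean of 5.94 against 6.11, went the other way at 0.06 ± 0.06 (SE). Kif4-ps was at -0.21 ± 0.08 (SE, limma adjusted p = 0.156), and its second probe set at -0.08 ± 0.06 (SE). It resembles Kif4 in sequence, and which of the pair its probes report was not tested. Its mean was 5.58 against 8.82 for Kif4, and r between them over 63 arrays was -0.31 after centring by group and RNA input. Without the low-Myc arrays its r with the mitotic members, Kif4 among them, was -0.06 to 0.14. The heavy chains of conventional kinesin showed small differences, -0.06 for Kif5b (95% interval -0.28 to 0.16), 0.01 for Kif5a and -0.03 for Kif5c. Axonal transport motors Kif1a and Kif1b were at -0.07 and 0.01, the Hedgehog regulator Kif7 at -0.05, and Kif2a, a depolymerase related to Kif2c, at -0.11 ± 0.12 (SE; limma adjusted p = 0.675). The remaining members (Kif1c, Kif2b, Kif9, Kif12, Kif13a, Kif13b, Kif16b, Kif17, Kif19a, Kif26a and Kif27) lay between -0.22 for Kif13a and 0.05 for Kif13b. Kif2b, Kif4-ps, Kif5a and Kif27 had means at or below 6 on the log2 scale.

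Genes that work with the kinesins gave a mixed picture. Of 20 spindle and midzone partners, 5 were lower and 0 higher, with a median of -0.53; they were Plk1 (-1.23 ± 0.28, SE; limma adjusted p = 0.00624), Aurka (-1.03), Tpx2 (-1.02), Ect2 (-0.68) and Prc1 (-0.61). Plk1 and Aurka are kinases of mitotic entry and spindle assembly, and Tpx2 activates Aurka on spindle microtubules. Of 9 measured relatives and partners outside the symbol rule, Cenpe, the kinetochore kinesin, fell by 0.84 ± 0.22 (SE; limma adjusted p = 0.0217) and the other 8, Kifbp, Klc3 and Klc4 among them, did not pass. Of 16 regulators and markers of the G2 and M program, 1 was lower, Cdc25c, the phosphatase that activates Cdk1 (-0.73 ± 0.20, SE; limma adjusted p = 0.0327), and the median was -0.19. Foxm1 was at -0.37 (limma adjusted p = 0.274), Ccnb2 at -0.39 (0.288) and Lin9 at -0.34 (0.212). Of 16 DNA replication genes 0 passed by limma (1 at an unadjusted p under 0.05), with a median of 0.02, Cdc6 at 0.30 (limma adjusted p = 0.142) having the smallest p. Of 18 dynein and dynactin genes, the minus-end motor system, 0 passed by limma (4 at an unadjusted p under 0.05), with a median of -0.14 and Nde1 at -0.49 (limma adjusted p = 0.129). In the 100 ng arrays none of these lists had a gene past the threshold; the limma adjusted p was 0.192 for Plk1, 0.156 for Aurka, 0.264 for Cenpe and 0.376 for Cdc25c. These lists were not independent of earlier results of these data, and their counts read against the same 1.26% and 1.41% of all genes. Their counts at an unadjusted p under 0.05 read against 3484 of all 19938 genes (limma).

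Across lymphomas the mitotic members varied together. After centring by group and RNA input, the 45 pairs of mitotic members correlated over the 63 arrays with r of 0.83 to 0.96 (median 0.91), and over the 61 arrays without the low-Myc ones with r of 0.76 to 0.95 (median 0.87). Kif2c and Kif20a were the closest pair, at 0.96. Of the other members, Kif18b came nearest to this block, with a median r of 0.88 to the mitotic members (0.84 without the low-Myc arrays). Kif24 and Kif5b followed at 0.71 each (0.60 and 0.61), Kif2a at 0.61 (0.54) and Kif3a at 0.52 (0.59). Kif21a was the member with the lowest value, -0.66 (-0.43 without). Of the 12 highest arrays for each mitotic member, 4 to 7 were native arrays of series 1 and 1 to 5 were CTX 4h arrays. With the number series as a further centring term, chosen after the values were seen, the mitotic pairs had r of 0.82 to 0.95 (median 0.89; 0.84 without the low-Myc arrays). The median r to the mitotic members was then 0.84 for Kif18b (0.74 without the low-Myc arrays), 0.70 for Kif24 (0.56), 0.62 for Kif5b (0.41), 0.57 for Kif2a (0.53), 0.28 for Kif3a (0.34) and -0.60 for Kif21a (-0.27). The correlations describe arrays that share normalization and RNA handling and are given without a test. The SD over arrays was in the top 10% of all genes for 8 of 10 mitotic members in CTX 4h, for 10 in native arrays and for 1 in native arrays without the low-Myc ones; the count was 2 of 28 other members in each case.

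**Figure D4:**
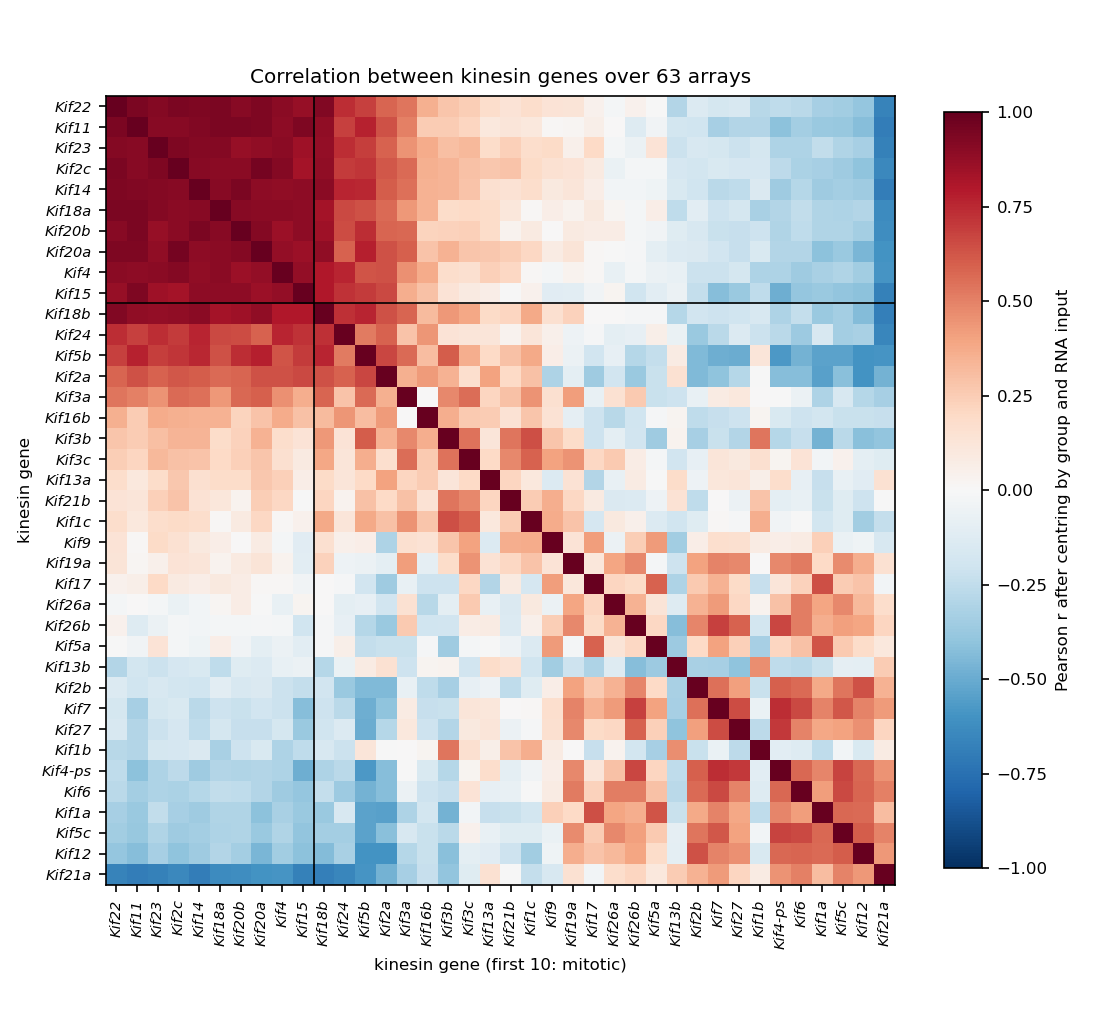
Pearson correlation between 38 kinesin genes over 63 arrays after centring by group and RNA input; the first 10 genes are mitotic. The mitotic block (r of 0.83 to 0.96) extends to Kif18b and, less strongly, to Kif24, Kif5b and Kif2a, and Kif21a runs opposite to it.

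Which lymphomas were low was nearly the same for every mitotic member. Of the 12 lowest arrays for each of the 10 members, 10 were CTX 4h arrays and the other 2 were the low-Myc native arrays. Of the CTX 4h arrays of series 1, replicate 29 alone was among these lowest arrays, for 1 member. CTX 4h replicates 25, 26, 27 and 28, also of series 1, were among the 12 highest arrays for 7, 5, 5 and 8 members. These ranks over all arrays do not separate the number series from the treatment. CTX 4h replicates 9, 11, 20, 23 and 30 were among the 12 lowest for all 10 members, and the low-Myc arrays were too. The low-Myc arrays held the 2 lowest values of Mki67, the standard proliferation marker (9.77 and 9.87), of Top2a (8.85 and 8.78) and of the replication gene Mcm2 (8.97 and 8.88). CTX 4h replicate 9, the array with the lowest Kif2c (7.10), had Mki67 at 11.20 (rank 6 of 63 from the lowest), Top2a at 10.42 (rank 3) and Mcm2 at 11.02 (rank 34). Top2a was low in the other 4 of these CTX 4h arrays as well, at ranks 6, 11, 5 and 4 in replicates 11, 20, 23 and 30, where Mki67 was at ranks 13, 19, 9 and 16. Mcm2 stood near or above the middle in replicates 11, 20 and 23 (ranks 36, 44 and 37) and at rank 8 in replicate 30. Mki67 itself ran from 10.83 to 12.54 (median 11.79) in CTX 4h and from 9.77 to 12.53 (median 12.25) in native arrays. It differed by -0.17 ± 0.16 (SE; limma adjusted p = 0.597) between groups, and by -0.32 ± 0.10 (SE; limma adjusted p = 0.0335) without the low-Myc arrays. With the Mki67 level as a covariate, 7 kinesin genes were lower, 5 of them mitotic, against 248 of all 19938 genes, and the mitotic median was -0.53.

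**Figure D5:**
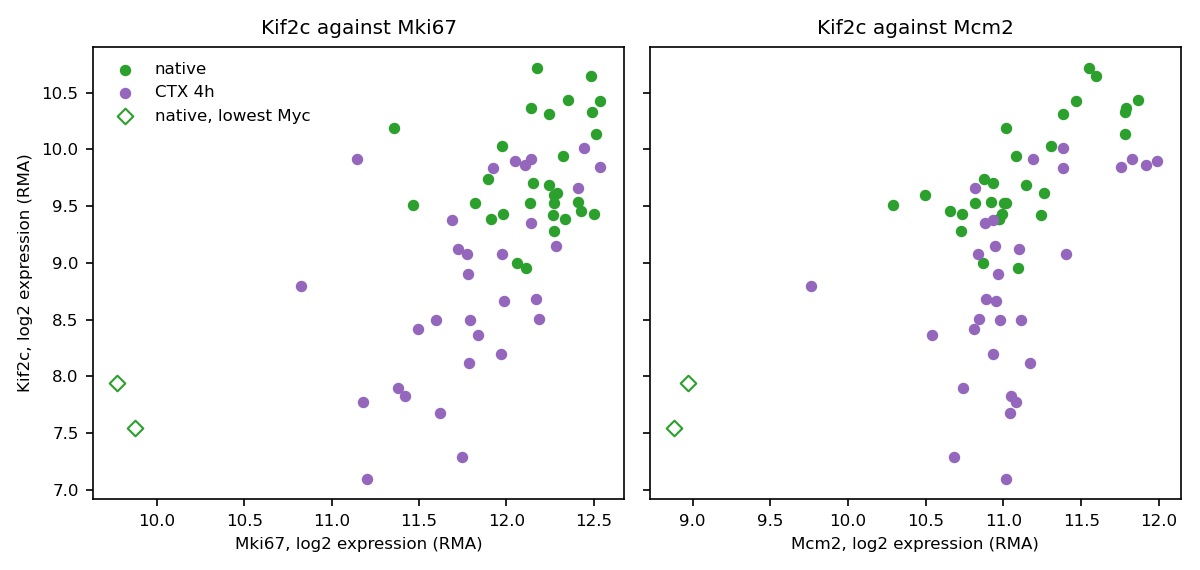
Kif2c against Mki67 (left) and against the replication gene Mcm2 (right), log2 expression, 1 point an array. The 2 low-Myc native arrays (open diamonds) are low on both axes, while CTX 4h arrays with Kif2c under 8 have Mcm2 between 10.68 and 11.08.

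Within CTX 4h arrays, 12 of 38 kinesin genes were related to Mki67 after centring by RNA input, all positively: the 10 mitotic members, Kif2a and Kif24 (100000 permutations, adjusted p under 0.05 over 76 relations). Relations were computed for the kinesin genes alone, so how many of all genes would be called is unknown, and the count does not set kinesins apart. Kif15 had the highest r, 0.69 (rho 0.68; permutation adjusted p = 0.00076 and 0.00228; r without the 2 farthest arrays 0.67; n = 31). Kif2c had r of 0.50 (rho 0.48; permutation adjusted p = 0.0133 and 0.032; r without the 2 farthest arrays 0.52; n = 31). Within the number series, r for Kif2c in CTX 4h was 0.14 (6 arrays), 0.24 (9 arrays) and 0.91 (14 arrays), and for Kif15 it was 0.62, 0.63 and 0.88. In native arrays the 2 low-Myc arrays form a cluster of their own, so no pooled r of a member is given. Among the other 30 native arrays no relation passed by r, and 5 passed by rho, Kif4 (r 0.46, rho 0.53) and Kif15 (r 0.54, rho 0.57) being the mitotic ones (permutation adjusted p by rho 0.0351 and 0.0262).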

How the data were processed

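Expression was measured on 63 Affymetrix arrays of mouse lymphoma RNA. The authors deposited expression on the log2 scale, made with Partek 6.5 and RMA (background correction, normalization, probe summary) per the submitters' processing notes. RMA compresses differences of dim genes, and it is unstated which arrays were normalized together. The array had 35557 probe sets. The platform table listed a single symbol for 21789 (21698 found in RefSeq, GRCm38.p6), more than 1 for 1621 and no symbol for 12147. Each of 19938 genes was represented by its brightest single-symbol probe set (44 kinesin probe sets, 38 genes, of which 6 had 2). Groups came from the treatment label.

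Treatment and RNA input entered a linear model over all genes (limma 3.58.1, R 4.3.3, lmFit and eBayes); p-values were two-sided and Benjamini-Hochberg adjusted, with a threshold of 0.05. The design for RNA input and its interaction used the same tool. Differences within series were tested by exact permutation, and relations with Mki67 by 100000 permutations within RNA input. The script was tested on simulated data with the same arrays: of 100 genes lowered by 0.5 on the log2 scale 80 were called, of 100 lowered by 1, 97, and 2 unchanged genes were called. The simulated noise was independent between genes and arrays, with no number series and no outlying arrays. The test therefore checks the script, and its rates need not hold for these data. Named genes are the 10 mitotic members, other members past the threshold, the 6 other members with the next smallest p, and up to 4 genes of each further list with the smallest p. The text adds Kif21a, Kif5b and further members, and Ect2, Top2a and Myc, chosen after their values were seen. The members and lists were chosen with earlier results of these data known. Other settings are in the closing section. Figures were drawn with matplotlib; sequences are RefSeq windows, and windows on chromosome 18 (Kif5b, Kif20a) were not used here.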

Additional observations from a re-analysis of the deposited data

Results flagged for a closer look

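In groups of 5 to 9 arrays within RNA input and number series, 68 checks of single arrays were made over the 17 kinesin genes named by rule, not over all 38, and 14 values lay farther from the nearest array than Dixon's 95% limit allows; chance sets apart about 1 in 20 groups. These checks are not independent, since the mitotic members vary together.

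CTX 4h replicate 9 was the lowest of 9 arrays of series 8 for all 10 mitotic members. It lay past the limit for 7 of them: Kif2c (7.10, next 8.20), Kif4 (6.72, next 8.34), Kif11 (9.56, next 10.75), Kif14 (7.07, next 7.94), Kif18a (7.20, next 7.97), Kif22 (7.89, next 8.68) and Kif23 (8.18, next 9.28). CTX 4h replicate 29 was the lowest of 6 arrays of series 1 for all 10 mitotic members. It lay past the limit for Kif2c (9.38, next 9.83), Kif14 (8.34, next 8.93) and, outside the mitotic members, Kif24 (7.39, next 8.07). Native replicate 8, a low-Myc array, was the lowest of 5 arrays of series 9 for all 10 mitotic members. It lay past the limit for Kif11 (8.43, next 11.13), Kif15 (7.42, next 9.39) and Kif20a (7.54, next 9.83), and on the high side for Kif4-ps (7.31, next 5.90). No explanation of these values was tested.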

How the results depend on the processing

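All 10 mitotic members kept a log2 fold change below 0 under every setting tried for the comparison over all arrays, the 100 ng arrays and the interaction. The number called did not hold. Against 6 lower kinesin genes, 5 of them mitotic, the counts were 3 and 3 without the RNA input term, 0 and 0 with the 100 ng arrays only or without the 2 CTX 4h arrays of 300 ng, 2 and 2 with the number series term, 15 and 10 with array weights (which also called Kif21a higher), 13 and 10 without the low-Myc arrays, 0 and 0 with the small nucleolar RNA score and 1 and 1 with the macrophage and stromal scores. Over all 19938 genes the count of lower ones moved too. Against 251, it was 183 without the RNA input term, 20 with the 100 ng arrays only and 51 without the 2 CTX 4h arrays of 300 ng. It was 66 with the number series term, 3677 with array weights and 1657 without the low-Myc arrays. It was 2 with the small nucleolar RNA score and 197 with the macrophage and stromal scores. Leaving out each array in turn gave 2 to 11 kinesin and 2 to 9 mitotic members. The extremes were without CTX 4h replicate 30 (105 of all genes lower) and without native replicate 8 (1034). The mitotic count was 8 without native replicate 19 and 3 without native replicate 14 or CTX 4h replicate 31. In the 100 ng arrays the count was 0, 3 without native replicate 8, and 0 to 3 leaving out each array. Relations with Mki67 in native arrays numbered 23 of 38 by r with the low-Myc arrays and 0 without, and were computed for the kinesin genes alone. Quantile normalization, scaling to a common median, averaging a gene's probe sets, keeping genes with a mean above 6, eBayes with trend and robust, leaving out the array titled rep2, and Mki67 as covariate left the kinesin count between 5 and 8 and the mitotic one between 4 and 6. For named genes, 231 values under other settings kept the side of the threshold, 36 lost it and 21 gained it. The settings with Mki67, without the 300 ng CTX 4h arrays, and those that joined or repeated the low-Myc exclusion at 100 ng, in the interaction and with the series were chosen after seeing the data. The causes of these changes were not tested. No paired analysis was possible because the replicate number in the titles is 1 for all arrays but a single one, and each lymphoma number occurs in 1 group. Dim members (means at or below 6) allow little to be read from their differences.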

Other observations

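Some members outside the mitotic block correlated with each other after centring by group and RNA input, with lower values when the low-Myc arrays were left out. Over the 63 arrays r was 0.73 for Kif4-ps and Kif7, 0.71 for Kif4-ps and Kif27, 0.68 for Kif7 and Kif26b and 0.64 for Kif2b and Kif12. Without the low-Myc arrays it was 0.46, 0.38, 0.52 and 0.54. Native replicate 8, a low-Myc array, held the highest value of all arrays for each of these 6 genes, such as 7.31 for Kif4-ps and 8.21 for Kif7. The median r to the mitotic members was -0.30 for Kif4-ps, -0.21 for Kif7 and -0.22 for Kif27, and 0.08, 0.25 and 0.12 without the low-Myc arrays. Under this centring the sign of that relation rested on those 2 arrays. With the number series as a further centring term and without the low-Myc arrays it was -0.10, 0.05 and 0.03, so Kif4-ps stayed below 0. Among the brighter transport motors, Kif1c and Kif3b correlated at 0.64, and at 0.47 with the number series as a further centring term. These values are descriptions with no test.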
